A study of Homo sapiens with 6 samples.

Results

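The 10 BCL2 family genes that govern the mitochondrial step of apoptosis were followed in PC9 cells with and without RBM10 knockdown. They are BCL2L1, MCL1 and BCL2, which restrain apoptosis, the effectors BAX and BAK1, and the BH3-only genes BCL2L11, BBC3, PMAIP1, BID and BAD. They were taken by gene symbol and are 10 of the 16306 genes in the gene table. All 10 passed the filter on low counts. The transcripts of BCL2L1, MCL1 and BCL2L11, taken by gene identifier, are 36 of the 76563 RefSeq transcripts in the transcript table.

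PC9 is a human lung adenocarcinoma line with an activating exon 19 deletion in EGFR, and it is a single line, so every library shares that background. RNA from 3 PC9 samples with a negative control shRNA (sh-NC) was compared with RNA from 3 PC9 samples with an shRNA against RBM10 (shRBM10), an RNA-binding regulator of alternative splicing. The study used more than 1 RBM10 shRNA, and the sources used here do not name the one behind each library. The protocol text of the labels mentions retinas and a pair of library kits, although the sample labels give PC9 cells. Epithelial markers (EPCAM, CDH1, EGFR and keratins, 7 of 7 present) summed to between 30670 and 55620 CPM (counts scaled to library size with TMM factors) in sh-NC and between 24790 and 36060 CPM in shRBM10. Retina markers summed to at most 8.65 CPM, nearly all of it NRL, and 3 of the 7 were absent from the table or at 0. Leukocyte, endothelial and fibroblast markers (8 of 9 present) summed to between 119.3 and 190.6 CPM in sh-NC and between 109.2 and 141.7 CPM in shRBM10, mostly from CD68, while PTPRC, PECAM1 and COL1A2 had at most 7 counts in any library.

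BCL2 family proteins decide whether the outer mitochondrial membrane stays intact. BAX and BAK1 form the pores that release cytochrome c, BCL2L1, MCL1 and BCL2 bind and hold them in check, and BH3-only proteins either block the antiapoptotic proteins or activate the effectors. In EGFR-mutant lung cancer, BIM, the product of BCL2L11, is known as a mediator of cell death after EGFR inhibition. BCL2L1 and BCL2L11 both make protein isoforms by alternative splicing.

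The isoform pair of BCL2L1 differs by the choice of a 5′ splice site at the end of exon 2, which lies on the minus strand of chromosome 20. The long form (BCL-xL, 233 residues, antiapoptotic) carries 189 bases of coding sequence that the short form (BCL-xS, 170 residues, proapoptotic) lacks. On GRCh38 the last base of exon 2 is at position 31721844 in the short form and 31721655 in the long form. The 30 bases on each side of each boundary are shown because the share of the short form, given below, depends on how reads across them were assigned, and capitals mark the side downstream of the boundary.
short form junction: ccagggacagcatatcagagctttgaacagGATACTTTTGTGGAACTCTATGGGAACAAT
long form across the short form donor: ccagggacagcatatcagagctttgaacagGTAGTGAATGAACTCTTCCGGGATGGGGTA
long form junction: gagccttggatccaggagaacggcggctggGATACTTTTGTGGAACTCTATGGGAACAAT
The short form junction and the long form junction have the same downstream exon, so only the upstream side tells them apart.

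Promoter windows of 300 bases around a start site (RefSeq on GRCh38.p14) were given for 9 of the 10 members and not for MCL1. Those of BCL2L11 and BAK1 are shown because these genes had the highest and the lowest fold change among the members. Capitals mark matches on either strand. The FOXO core searched was TGTTTAC. The CCAAT box is named by its own letters, and the GC box searched was GGGCGG.
BCL2L11 promoter, chr2:111120664-111120963, plus strand: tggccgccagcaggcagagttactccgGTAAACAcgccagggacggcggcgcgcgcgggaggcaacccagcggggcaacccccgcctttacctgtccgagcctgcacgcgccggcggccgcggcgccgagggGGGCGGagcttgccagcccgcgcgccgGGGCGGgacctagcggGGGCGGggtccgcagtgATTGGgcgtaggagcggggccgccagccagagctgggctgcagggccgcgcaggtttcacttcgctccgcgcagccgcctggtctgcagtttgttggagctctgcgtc
BAK1 promoter, chr6:33580227-33580526, minus strand: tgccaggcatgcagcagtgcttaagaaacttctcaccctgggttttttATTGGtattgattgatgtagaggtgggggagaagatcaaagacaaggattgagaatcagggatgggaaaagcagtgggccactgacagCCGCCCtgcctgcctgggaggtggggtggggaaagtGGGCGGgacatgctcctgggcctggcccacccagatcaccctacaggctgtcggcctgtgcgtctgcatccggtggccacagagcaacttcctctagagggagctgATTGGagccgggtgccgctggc
The BCL2L11 window had a GC content of 74.7% and held all of these motifs. The BAK1 window had a GC content of 58.7%, equal to the median of 58.7% over all 35116 promoters, and held CCAAT and GC boxes. The FOXO core was present in 3.42% of all promoters, and BCL2L11 was the only member with a window that held it. Of the 15 windows of the 9 members, 6 held a CCAAT box (34.61% of all promoters) and 11 a GC box (44.95%), and some windows of the same gene overlap. Such matches are a description of the letters and not of binding.

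Library totals ran from 16606390 to 18864243 counts. The sh-NC replicate 2 library stood apart, with a TMM normalization factor of 0.738 against 1.033 to 1.080 in the others, and sh-NC replicates 1 and 3 were far more alike (chi-square per degree of freedom 2.93) than any other pair of libraries (29.7 or more). Fold changes of the members are therefore also given without sh-NC replicate 2. The counts of RBM10 were 1578, 864 and 1628 under sh-NC (replicates 1 to 3) against 523, 537 and 700 under shRBM10 (libraries A to C), so every shRBM10 library was below every sh-NC library, and its log2 fold change was -1.24 ± 0.23 (SE, adjusted p = 0.1, edgeR quasi-likelihood test). With DESeq2 it was -1.26 (adjusted p = 0.00157), and without sh-NC replicate 2 it was -1.42 (adjusted p = 0.0487 by edgeR). Other settings gave a higher adjusted p. After a trend on GC content was removed, RBM10 had -0.96 (adjusted p = 0.101 by edgeR), short of the fold limit of 1. Without shRBM10 library A it had -1.20 (adjusted p = 0.454 by edgeR). RBM10 overlaps NDUFB11 on the opposite strand, and whether counting used strand is not given in the sources used here. Reads from the stretch that the pair share therefore cannot be told apart, and the extent of that stretch was not measured. The labels give the replicates as separate biosamples and the methods speak in general of independent repeats, but neither names separate cultures for these libraries, so p-values may measure only the spread between these samples.

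No member passed the test for a change of expression (adjusted p under 0.05 and absolute log2 fold change over 1), which called 0.0158% of the 12620 genes tested. None passed with DESeq2 either, which called 4.64% of the genes it tested. When p was left unadjusted and the fold limit kept, the count was 0 of 10 members, against 11.6% of all genes (10.1% higher and 1.53% lower). It was 1 without sh-NC replicate 1 (BAK1), 2 without sh-NC replicate 3 (BAK1 and BCL2L11) and 2 without shRBM10 library C (BAK1 and MCL1). Without the fold limit, 2 members were higher in shRBM10 (MCL1 and BCL2L11, against 15.7% of all genes) and 1 was lower (BAK1, against 8.6%). MCL1 and BCL2L11 were higher in every shRBM10 library than in every sh-NC library (13.8% of all genes), and BCL2L1, BAK1 and BAD were lower in every shRBM10 library (16.2% of all genes). The median log2 fold change of the 10 members was -0.23 and that of all genes tested was 0.03. In bulk RNA, fewer cells of a type and less RNA per cell cannot be told apart.

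**Figure D1:**
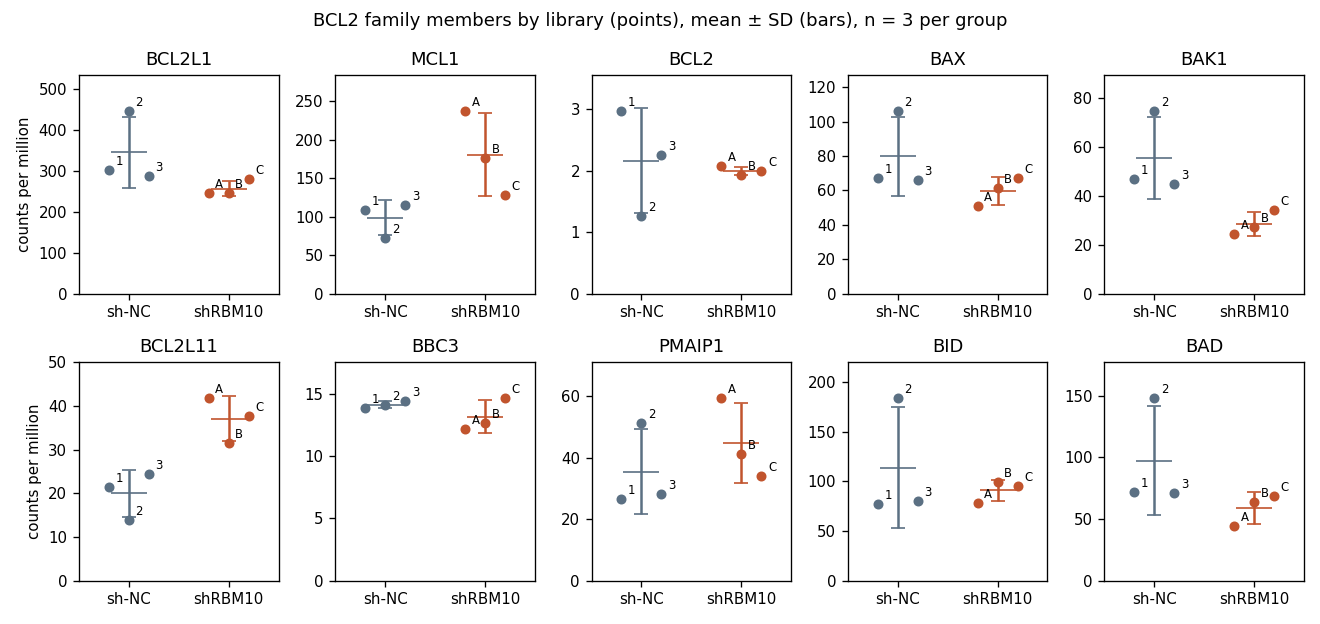
Level of each member in TMM-scaled CPM (vertical axes from 0, a separate scale for each gene) in the 3 sh-NC replicates (1, 2, 3) and the 3 shRBM10 libraries (A, B, C), with points for libraries and bars for mean ± SD. MCL1 and BCL2L11 lie higher and BCL2L1, BAK1 and BAD lower in all shRBM10 libraries, and sh-NC replicate 2 is at an extreme of its group for every member but BBC3.

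Among the antiapoptotic genes, MCL1, a short-lived protein that holds BAK1 and BIM, was higher in shRBM10. MCL1 levels were 108.1, 72.3 and 115.4 CPM in the sh-NC libraries against 236.6, 176.0 and 128.5 CPM in the shRBM10 libraries. All shRBM10 libraries were above the highest sh-NC library, but library C was above it by less than the spread within sh-NC. The means were 98.6 ± 23.1 CPM and 180 ± 54.2 CPM (SD, n = 3 each). The log2 fold change was 0.87 ± 0.29 (SE, adjusted p = 0.158 by edgeR) and 0.60 without sh-NC replicate 2. ADAMTSL4-AS1 overlaps MCL1 on the same strand.

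BCL2L1, the most abundant member per kilobase, was lower in shRBM10 but within a narrower margin. Its levels were 302.7, 446.3 and 288.5 CPM in sh-NC and 245.6, 247.0 and 279.6 CPM in shRBM10. Library C lay just under the lowest sh-NC library, and sh-NC replicate 2 was the highest of all. The log2 fold change was -0.43 ± 0.25 (SE, adjusted p = 0.293 by edgeR), and -0.28 without that replicate. The antisense RNA ABALON overlaps BCL2L1, and reads from the stretch they share cannot be told apart without strand. BCL2, the founding member of the family, was barely expressed, with between 17 and 60 counts in every library. Its groups overlapped, and its log2 fold change was -0.13 ± 0.36 (SE, adjusted p = 0.825 by edgeR), and -0.47 without sh-NC replicate 2.

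Of the pore-forming effectors, BAK1, which sits in the mitochondrial membrane and is restrained by MCL1 and BCL-xL, had the smallest p of the members. BAK1 counts were 948, 1000 and 913 in the sh-NC libraries and 439, 523 and 651 in those of shRBM10, or 46.8, 74.5 and 44.8 CPM against 24.5, 27.3 and 34.0 CPM. Every shRBM10 library was below every sh-NC library, also on the raw counts, which do not depend on the normalization. The means were 55.4 ± 16.6 and 28.6 ± 4.89 CPM (SD, n = 3 each). The log2 fold change was -0.95 ± 0.28 (SE, adjusted p = 0.153 by edgeR), and -0.76 (adjusted p = 0.127 by edgeR) without sh-NC replicate 2. With DESeq2 it was -0.96 with an adjusted p of 0.0458, short of the fold limit. Processed pseudogenes of BAK1 (BAK1P1 and BAK1P2) and the overlapping GGNBP1 could share its reads, and how such reads were assigned is not given in the sources used here. BAX, which moves from the cytosol to mitochondria on activation, had 67.3, 106.0 and 66.0 CPM in sh-NC and 51.0, 61.4 and 67.1 CPM in shRBM10. These groups overlapped, and the log2 fold change of BAX was -0.41 ± 0.26 (SE, adjusted p = 0.318 by edgeR), and -0.24 without sh-NC replicate 2.

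BCL2L11 had the highest fold change of the BH3-only genes. Its counts were 436, 187 and 496 in sh-NC and 748, 606 and 722 in shRBM10, and its levels 21.5, 13.9 and 24.4 CPM against 41.8, 31.6 and 37.7 CPM. The groups did not overlap, with the lowest shRBM10 library above the highest sh-NC library. The log2 fold change was 0.89 ± 0.28 (SE, adjusted p = 0.156 by edgeR), and 0.61 without sh-NC replicate 2. Part of MIR4435-2HG lies on the opposite strand of BCL2L11, and reads from the stretch they share cannot be told apart without strand.

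BAD, whose product is inactivated by survival kinases, was lower in shRBM10, with 71.9, 148.0 and 71.4 CPM in sh-NC and 44.3, 63.9 and 68.3 CPM in shRBM10. Library C differed little from sh-NC replicates 1 and 3. The log2 fold change was -0.72 ± 0.33 (SE, adjusted p = 0.208 by edgeR), and -0.36 without sh-NC replicate 2. GPR137 overlaps BAD on the opposite strand. The groups of BBC3, PMAIP1 and BID overlapped. BBC3 and PMAIP1 encode the p53 targets PUMA and NOXA, the latter a selective partner of MCL1, and their log2 fold changes were -0.10 ± 0.25 and 0.34 ± 0.33 (SE), or -0.18 and 0.62 without sh-NC replicate 2. BID links death receptors to mitochondria, and its log2 fold change was -0.32 ± 0.34 (SE) with all libraries and 0.13 without sh-NC replicate 2.

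**Figure D2:**
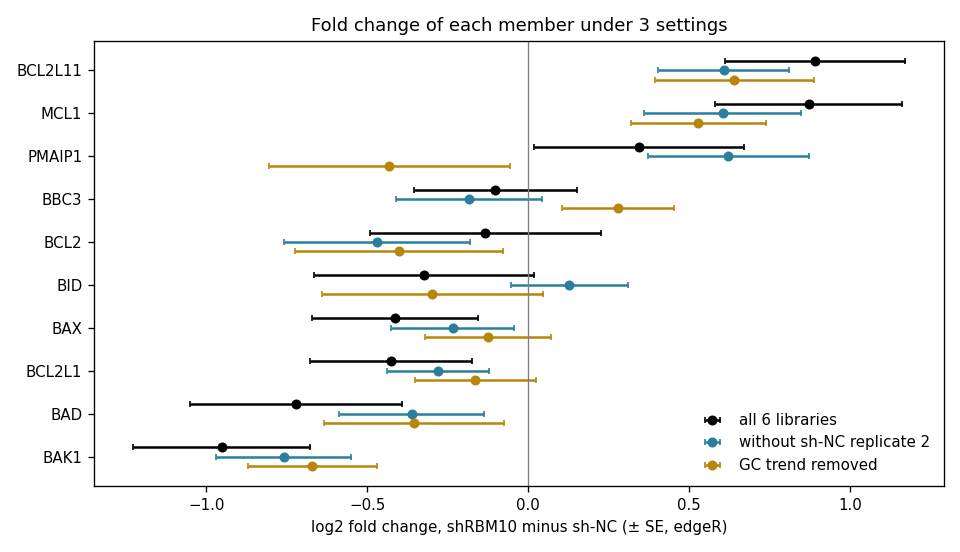
Log2 fold change of each member (horizontal axis, shRBM10 minus sh-NC, bars are ± SE from edgeR) with all 6 libraries, without sh-NC replicate 2, and after a trend on GC content was removed. PMAIP1, BBC3 and BID change sides of 0 among these 3 settings, and the other 7 members keep theirs.

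The base composition of a gene moved with its fold change. Over the tested genes, GC content of the longest GENCODE transcript and log2 fold change had r = -0.57 (across genes, which are not independent replicates). The relation of a library's level to GC content differed within both groups. In shRBM10 libraries A, B and C it had r = -0.67, -0.62 and -0.12 against the sh-NC mean. In sh-NC replicates 1, 2 and 3 it had r = -0.21, 0.22 and -0.19, each against the mean of the other sh-NC libraries. The members that were higher are AT-rich (MCL1 45.1% GC, BCL2L11 45.7%) and those that were lower are GC-rich (BCL2L1 56.9%, BAK1 58.8%, BAD 66.3%). Genes within 1 percentage point of the GC content of a member give its surroundings. Their median log2 fold change was 0.32 around MCL1 and 0.25 around BCL2L11, where the members had 0.87 and 0.89. Around BAK1 it was -0.30, where BAK1 had -0.95, and around BAX it was -0.30, where BAX had -0.41. PMAIP1, with 37.2% GC, had a log2 fold change of 0.34, below the median of 0.76 around it. BCL2, with 45.6% GC, had -0.13 where the median around it was 0.27, on few counts. BID had -0.32 against -0.03, and BBC3, with 69.7% GC, had -0.10 against -0.34. BCL2L1 and BAD had -0.43 and -0.72 against -0.28 and -0.37.

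With the GC trend removed, MCL1 had a log2 fold change of 0.53 ± 0.21, BCL2L11 0.64 ± 0.25 and BAK1 -0.67 ± 0.20 (SE). Their adjusted p-values by edgeR were 0.257, 0.252 and 0.191. The adjusted levels of BAK1 were 43.7, 64.1 and 41.7 CPM in sh-NC and 30.8, 31.8 and 31.6 CPM in shRBM10. The 3 shRBM10 libraries thus lay within about 1 CPM of each other on this scale. Groups were apart for 3 members in the higher direction (MCL1, BCL2L11 and BBC3, against 14.2% of all genes) and for 1 in the lower direction (BAK1, against 16%). The gap was narrow for BCL2L11, with 28.17 CPM in library B against 26.25 CPM in sh-NC replicate 3. For BBC3 it was 13.28 CPM in library C against 13.21 CPM in sh-NC replicate 3 (unadjusted p = 0.15 by edgeR). An unadjusted p under 0.05 was found for 3 members (18.2% of all genes). BCL2L1 and BAD overlapped between groups after this step, at log2 fold changes of -0.16 and -0.36. With sh-NC replicate 2 also left out, a setting added after the data were seen, BAK1 had -0.45 (adjusted p = 0.0379 by edgeR), short of the fold limit. This setting called 266 genes with the fold limit, against 2 in the main fit. BCL2L11 had 0.43, MCL1 0.35 and BCL2, on few counts, -0.66 (adjusted p = 0.144, 0.136 and 0.129 by edgeR). BCL2L1, BAX and BAD were then at 0.02, 0.09 and 0.02, and BBC3, BID and PMAIP1 at 0.24, 0.21 and 0.14. The part of base composition in these differences was not tested.

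**Figure D3:**
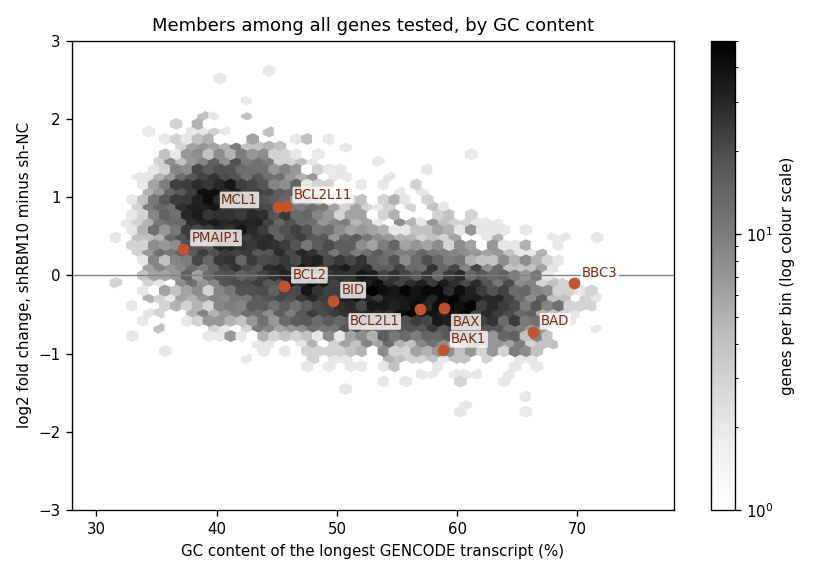
Log2 fold change (vertical axis, shRBM10 minus sh-NC) against GC content of the longest GENCODE transcript (horizontal axis, percent) for the tested genes, as bins shaded by the number of genes on a log colour scale, with the 10 members as labelled points. The cloud slopes downward with GC content, MCL1 and BCL2L11 sit above its middle, and BAK1 sits at its lower edge near BAX.

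Ratios of counts within a library need no normalization between libraries, and all 45 ratios between members were computed. BAX and BAK1 differ by 0.1 percentage points in GC content. The ratio of BAX to BAK1 counts was 1.44, 1.42 and 1.47 in sh-NC and 2.08, 2.25 and 1.97 in shRBM10, with means of 1.44 ± 0.02 and 2.10 ± 0.14 (SD, n = 3 each). On this measure sh-NC replicate 2 did not stand apart. The difference of 0.54 on the log2 scale was 7.60 times the pooled SD, the highest of the 45 ratios, and the ratio was singled out after its values were seen. Its exact permutation p was 0.1, the smallest that 3 against 3 libraries allow (two-sided), and 0.1875 after Benjamini-Hochberg adjustment over the 45. Leaving out any library in turn kept the group difference (shRBM10 minus sh-NC) in the log2 ratio of BAK1 to BAX between -0.49 and -0.58. The ratio of BCL2L1 to BAX, by contrast, had means of 4.36 ± 0.14 and 4.34 ± 0.42 (SD, n = 3 each), the least separated of the 45.

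Among the AT-rich members, the ratio of MCL1 to BCL2L11 counts was 5.03, 5.19 and 4.74 in sh-NC against 5.66, 5.57 and 3.41 in shRBM10. It overlapped between groups (exact permutation p = 1). BCL2, also AT-rich (45.6% GC) but on few counts, had ratios to both genes that did not overlap between groups. BCL2 to BCL2L11 was lower in shRBM10 (log2 difference -0.96), and MCL1 to BCL2 was higher (0.89). The ratio of BCL2L1, which sequesters BIM, to BCL2L11 was 14.1, 32.0 and 11.8 in sh-NC against 5.88, 7.82 and 7.41 in shRBM10. Every shRBM10 library was lower. These genes differ by 11.2 percentage points in GC content, with BCL2L1 the GC-richer, so the ratio fell in the direction of the GC trend. The part of base composition in this ratio was not tested. Of the 45 ratios, 24 did not overlap between groups, and they share members and are not independent. The share among pairs of other genes was not computed, so this count cannot be read as particular to the family.

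**Figure D4:**
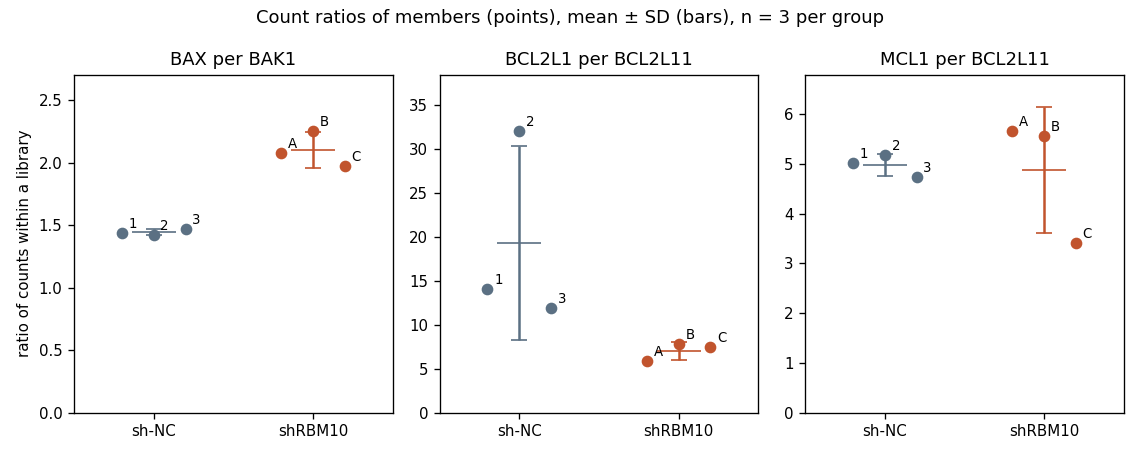
Ratio of counts within each library (vertical axes from 0, separate scales) for BAX to BAK1, BCL2L1 to BCL2L11 and MCL1 to BCL2L11, with points for libraries (sh-NC 1, 2, 3 and shRBM10 A, B, C) and bars for mean ± SD. BAX to BAK1 is near 1.44 in all sh-NC libraries and between 1.97 and 2.25 in shRBM10, and MCL1 to BCL2L11 overlaps.

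Levels per kilobase of transcript put the members in an order. In sh-NC, BCL2L1 (122.7 ± 27.3 CPM per kilobase, SD, n = 3), BAX (114.6 ± 31.3) and BAD (98.4 ± 40.1) were at the top, and their ranges overlapped. BID (51.6), MCL1 (25.02), BAK1 (22.8) and PMAIP1 (16.7) followed, with overlapping ranges between BAD and BID and among the last 3 of these. BBC3 (8.15), BCL2L11 (4.68) and BCL2 (0.259) were the lowest, each apart from its neighbours. In shRBM10 the same genes led, with BCL2L1 at 94.0 ± 6.14 and BAX at 83.0 ± 12.4 CPM per kilobase (SD, n = 3 each). MCL1 (47.2) stood beside BID (43.4), and BAK1 (11.8 ± 1.71) beside BCL2L11 (10.2 ± 1.55, SD, n = 3 each), with overlapping ranges.

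The question of isoforms was addressed with the transcript counts, which are estimates of how reads shared by transcripts divide. Splicing of BCL2L1 is known to respond to several RBM proteins, and its short form made up 10.9%, 7.58% and 8.37% of short plus long in sh-NC against 6.69%, 8.73% and 6.93% in shRBM10. The exact 95% binomial interval was 10.1% to 11.7% in sh-NC replicate 1 and 5.94% to 7.50% in library A, and covers counting error only. Library B lay inside the sh-NC range. The means were 8.94% ± 1.71 and 7.45% ± 1.12 (SD, n = 3 each), a difference of -1.49 percentage points (exact permutation p = 0.3, two-sided). Without sh-NC replicate 1 the difference was -0.53 points, and it was -2.17 points without sh-NC replicate 2. The long form is spread over 7 transcripts, of which NM_138578, NM_001317919 and NM_001322242 took mean shares of 31.6%, 27.6% and 13.5% of the gene in sh-NC against 31.5%, 26.3% and 13.2% in shRBM10. The transcript of the short form, NM_001191, had a log2 fold change of -0.62 ± 0.22 (SE, adjusted p = 0.501 by edgeR). XM_011528964, which has no protein match in the annotation, took 5.01% and 5.32%.

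**Figure D5:**
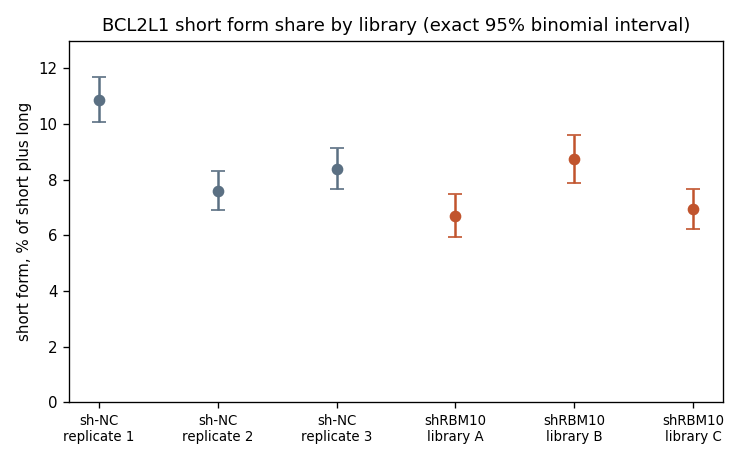
Share of the short form in short plus long BCL2L1 counts (vertical axis, percent, from 0) in each library (horizontal axis), with exact 95% binomial intervals that cover counting error only. The sh-NC libraries run from 7.58% to 10.9% and the shRBM10 libraries from 6.69% to 8.73%, so the groups overlap.

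MCL1 was counted almost wholly as NM_021960, the antiapoptotic long form of 350 residues. It took 100% in 5 libraries and 99.7% in shRBM10 library B, where NM_182763, the proapoptotic short form of 271 residues, had 9.49 estimated counts and was listed at 0 elsewhere. A shift to the short form was thus not detectable in these counts. The log2 fold change of NM_021960 was 0.91 ± 0.31 (SE, adjusted p = 0.500 by edgeR).

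BCL2L11 counts were divided over 24 transcripts, 7 of them with a mean share of 5% or more in a group, and with only 187 to 748 counts per library the shares scattered widely. Transcripts for the 198-residue protein (BIM-EL), the form most often followed in cells, took 24.7%, 38.4% and 50.9% in sh-NC against 19.8%, 35.0% and 44.5% in shRBM10. NM_006538, for BIM-L of 138 residues, took 4.05%, 0% and 15.8% in sh-NC against 7.55%, 14.9% and 21.6% in shRBM10. The groups overlapped for both. Of the rest, XM_005263551 was listed at 0 in all sh-NC libraries and in library C and took 18.04% and 12.8% in libraries A and B. The shares of NM_138623, NM_138622, NM_001204106 and NM_207003 also overlapped between groups, and NM_138623 was listed at 0 in sh-NC replicate 2 and library C.

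No member passed the test of transcript usage (edgeR diffSpliceDGE, adjusted Simes p of 1 for the 8 members tested, lowest unadjusted Simes p 0.661), which called 0.0958% of the 8348 genes tested, and MCL1 and BCL2 had too few transcripts left to test. Of 44 member transcripts tested for their level, 0 were called by edgeR (0% of 38286 transcripts) and 1 had an unadjusted p under 0.05 with the fold limit (5.22%). For BAX, the transcripts of the 192-residue protein took 62.4%, 65.3% and 63.6% of the gene in sh-NC and 70.5%, 68.3% and 69.7% in shRBM10. All shRBM10 libraries were above sh-NC (exact permutation p = 0.1, the smallest possible). For BID, transcripts of a 99-residue form took 17.9% ± 2.37 in sh-NC and 22.8% ± 2.13 in shRBM10 (SD, n = 3 each), without overlap. These BAX and BID shares were singled out after their values were seen. How often such shares fail to overlap over all genes was not computed. The usage test gave unadjusted Simes p of 0.967 for BAX and 0.973 for BID (edgeR diffSpliceDGE).

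Around the members, the other BCL2 family genes showed 1 of 11 higher and 1 lower at an unadjusted p under 0.05 with the fold limit (median log2 fold change -0.09). Over all genes tested this rule was met by 10.1% in the higher and 1.53% in the lower direction, which holds for the counts of the lists that follow, and the median over all genes was 0.03. The 2 BCL2 family genes were BNIP3L, a mitophagy receptor, and BIK, a BH3-only gene. BNIP3L had 1.03 ± 0.27 (SE, 0.31 with the GC trend removed). BIK had -1.03 ± 0.31 (SE, -0.78 with the GC trend removed). BMF, another BH3-only gene, had 0.72. Among 10 genes of mitochondrial release and the apoptosome, 1 was higher and 0 were lower by the same rule (median -0.30). That gene was APAF1, the scaffold of the apoptosome, at 1.59 ± 0.54 (SE), from 11 to 58 counts in sh-NC and 57 to 186 in shRBM10 (0.94 with the GC trend removed), and ENDOG and CASP9 had -0.77 and -0.46 (-0.31 each without sh-NC replicate 2). None of 6 executioner caspases and substrates met it (median -0.21), with DFFA, CASP2 and DFFB at -0.31, -0.31 and -0.39 (CASP2 -0.52 without sh-NC replicate 2). No gene of any of these lists passed the adjusted test by edgeR.

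Inhibitor of apoptosis proteins, which block caspases downstream of the BCL2 family, had 2 of 6 genes higher and 1 lower by the unadjusted rule (median log2 fold change 0.99, and 0.41 after the GC trend was removed). BIRC2 and XIAP had 1.22 ± 0.42 and 1.08 ± 0.40 (SE), or 0.85 and 0.73 without sh-NC replicate 2 and 0.48 and 0.33 with the GC trend removed, and the groups of XIAP overlapped. BIRC5, the mitotic protein survivin, had -1.17 ± 0.27 (SE). BIRC5 counts were 2374, 2518 and 2410 in the sh-NC libraries and 898, 1250 and 1392 in those of shRBM10. Its shRBM10 libraries were all far below sh-NC, and sh-NC replicate 2 was close to the others on raw counts. In CPM, BIRC5 had 117.2, 187.7 and 118.4 in sh-NC, where replicate 2 stood apart, and 50.2, 65.2 and 72.8 in shRBM10. Of 12 genes for turnover or transcription of family members, 0 were higher and 1 was lower (median 0.25). The lower gene was E2F1, a cell cycle transcription factor, at -1.07 ± 0.26 (SE, -0.76 with the GC trend removed), and TP73 had -0.99. The MCL1 ubiquitin ligase component FBXW7 had 1.15 ± 0.59 (SE), or 0.61 without sh-NC replicate 2, and its groups overlapped. FBXW7 counts were 63, 7 and 76 in sh-NC and 138, 117 and 54 in shRBM10. Of 15 RNA-binding proteins that act on BCL2L1 or MCL1 splicing, 2 were higher and 0 lower (median -0.08). They were SF3B1, a core splicing factor, at 1.64 ± 0.52 and RBM25, a promoter of the short form of BCL2L1, at 1.10 ± 0.46 (SE), and both had groups that overlapped, with library C within the range of sh-NC. RBM25 had 0.70 without sh-NC replicate 2 and 0.35 with the GC trend removed, where SF3B1 had 0.94. PTBP1 had -0.54, and -0.24 with the GC trend removed.

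The 6 stress signs had a median log2 fold change of -0.60 (-0.30 with the GC trend removed), and 0 of them met the unadjusted rule. TRIB3, GDF15 and ATF3, targets of the integrated stress response, had log2 fold changes of -0.86, -0.72 and -0.78, and the 6 genes summed to between 1077 and 1302 CPM in sh-NC and between 601.1 and 810.9 CPM in shRBM10 without overlap, most of it TRIB3 (826.8 to 934.6 CPM in sh-NC and 396.6 to 588.4 CPM in shRBM10). With CHAC1, 4 of the 6 were lower without overlap (16.2% of all genes), while the groups of DDIT3 (-0.25) and HMOX1 (0.06) overlapped. With the GC trend removed, TRIB3 and GDF15 had -0.56 and -0.37, CHAC1 -0.14 (from -0.48) and ATF3 -0.94. Of the 5 tested leukocyte, endothelial and fibroblast markers, 0 were higher and 2 lower by the unadjusted rule (10.1% and 1.53% of all genes). The lower genes were CDH5 and VWF (at most 177 and 27 counts in a library), at -1.38 and -1.31. Both were lower without overlap (16.2% of all genes), and COL1A1 (0.77), CD68 and PDGFRB overlapped. PECAM1, the other endothelial marker, had at most 3 counts in a library and was not tested. The part of these stress and marker genes in the values of the members was not tested.

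Over the 6 libraries, the genes whose log2 CPM was most like that of BAK1 were CBX8 (r = 0.9985), DUS3L (r = 0.9984) and HDGF (r = 0.998), among 10090 genes with a mean count of at least 100. Of these, 698 had an r over 0.95 with BAK1. All genes were read from the same 6 libraries and share their depth.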

How the data were processed

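RNA-seq of 6 PC9 libraries (3 sh-NC, 3 shRBM10) was analysed from the authors' deposited tables of estimated counts per gene and per RefSeq transcript, which are not normalized. The submitters' processing notes name hg38. The aligner, the counting tool and its strand setting are not given in the sources used here. Of the deposited estimated counts, 87.5% were whole in the gene table and 41.1% in the transcript table, so isoform values depend on how shared reads were divided. The columns of shRBM10 libraries B and C match no sample title and carry no replicate number. In each table, 18 columns of other measures and 8 of group means were not used.

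Counts were rounded, filtered with filterByExpr, scaled by TMM and tested with glmQLFTest in edgeR 4.0.16 (limma 3.58.1, R 4.3.3), with Benjamini-Hochberg adjustment over all 12620 genes. A call needed an adjusted p under 0.05 together with a log2 fold change beyond 1 in size. The SE is the log2 fold change divided by the square root of F. Usage was tested with diffSpliceDGE, and single shares with exact permutation tests (smallest p for 3 against 3, 0.1). Scripts were tested on simulated data. GC content was found for 99.6% of tested genes, and its trend was removed by lowess offsets per library (span 0.3). Levels are TMM-scaled CPM, and levels per kilobase used GENCODE 29 transcript lengths. Alternatives were DESeq2 1.42.0, limma-voom, other normalizations and filters, and leaving out each library.

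All 10 members are named, with transcripts of BCL2L1, MCL1 and BCL2L11 at 5% or more of the gene, and from each list the 3 genes with the smallest p. For the stress and marker lists, named genes were chosen after their values were seen. Members and lists were chosen with earlier results of these data known.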

Additional observations from a re-analysis of the deposited data

How the results depend on the processing

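The 2 genes called by edgeR became 574 with DESeq2, 0 with library size only, 31 with no filter, 1465 at an unadjusted p, 0 to 23 when a library was left out (23 without sh-NC replicate 2), and 266 with the GC trend removed and without sh-NC replicate 2, a setting added after the data were seen. The 8 genes called for usage became 0 with limma diffSplice, 0 with at least 10 counts in every library, and 5 to 12 when a library was left out. No member was called under any of these. Members at an unadjusted p with the fold limit numbered 0, and 0 to 2 when a library was left out. Library size only moved the median log2 fold change of all genes from 0.03 to 0.16. MCL1 and BCL2L11 were above 0 and BAK1 below 0 under all 15 settings, from 0.35 to 1.00, 0.43 to 1.06 and -1.13 to -0.45. Signs turned for BCL2L1 (0.015), BAX (0.085), BAD (0.024), BBC3 (0.236) and BID (0.207) with the GC trend removed and without sh-NC replicate 2, for BBC3 (0.279) and PMAIP1 (-0.431) with the GC trend removed, for BBC3 (0.019) with library size only, for BCL2 without sh-NC replicate 1 (leave-one-out range -0.47 to 0.158) and for BID without sh-NC replicate 2 (range -0.539 to 0.127); the cause was not tested. No paired analysis was possible because libraries B and C carry no replicate number. With 3 libraries a group the exact tests cannot go below 0.1, and isoform shares of BCL2L11 rest on few counts.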
